A study of Homo sapiens with 9 samples.

Results

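The genes described here act between the decision to enter mitosis and the separation of the daughter cells. They are 50 G2/M genes, named as a list by symbol, that leave out the polo-like and Aurora kinases, the kinesins and the kinetochore genes. All 50 were found among the 17083 genes of the deposited table, and all 50 passed the filter on low counts that left 12924 genes. The rule that names them uses no measured value, but they were chosen with earlier results of these data known. RNA came from 9 cultures of HEK293T, an established human cell line from embryonic kidney. Its SV40 large T antigen binds the retinoblastoma proteins, which otherwise restrain the cell cycle. The label gives the genotype of all 9 as wild type (WT) and the cell type as epithelial. An empty FLAG vector was overexpressed in 3 cultures (Vector), FLAG-tagged PLK2 in 3, and FLAG-tagged PLK2(D223N), in which an aspartate of the kinase domain is replaced by asparagine, in 3. PLK2 is a polo-like kinase known for work at the centrosome and for being induced by stress and by neuronal activity. The series title concerns PLK2 in microglia, and the cells here serve to find transcripts that PLK2 alters. The promoter of the constructs, the share of cells that took them up, the time of harvest and the phase of the cell cycle are not given in the labels or headers, and kinase activity was not measured.

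Mitotic entry is driven by cyclin B bound to CDK1. WEE1 and PKMYT1 hold CDK1 back by phosphorylation, and the CDC25 phosphatases release it. Condensin then compacts the chromosomes, spindle proteins attach and align them, the anaphase-promoting complex with CDC20 opens the way to separase, and anillin, PRC1 and the RACGAP1-ECT2 module build the cleavage furrow. The mRNAs of most of these proteins are made late in the cycle, when the MuvB core with MYBL2 and FOXM1 acts at promoters that carry a cell cycle genes homology region (CHR), often with CCAAT boxes nearby. In bulk RNA, a larger share of cells in G2 and M and more of an mRNA in each such cell cannot be told apart.

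Library totals lay between 14288165 and 16510193 counts. PLK2 itself was at 2.83 to 4.09 CPM (counts scaled to library size by the TMM method) in Vector libraries, at 10680 to 13978 with PLK2(D223N) and at 21490 to 26239 with PLK2, in keeping with the labels, and the amount of construct RNA differed between the forms. The substitution and the level of the construct therefore cannot be told apart. Vector replicate 1 stood apart, with a mean chi-square per gene of 18.1 and 11.0 against the other Vector libraries, where all other pairs within a group lay between 1.64 and 2.83. It was the lowest of the 9 libraries for 25 of the 50 mitotic genes, against 31.2% of all genes, and the highest for 10, against 31.1%. The median SD of log2 CPM of the 50 genes was 0.141 for Vector, 0.0231 for PLK2(D223N) and 0.0403 for PLK2. Of 9 epithelial and kidney-line markers 8 were in the table, with summed levels of 68.3 to 80.7 CPM. KRT8 and KRT18 were present in every library (18.1 to 22.0 and 41.3 to 49.1 CPM). EPCAM, CDH1, PAX2, LHX1, NEFM and NEFL were low, between 0 and 4.05 CPM, and KRT19 was not in the table. Summed microglial markers (5 of 7 in the table) reached 0.787 to 1.74 CPM in Vector libraries, 0.687 to 1.12 with PLK2(D223N) and 1.18 to 1.37 with PLK2. Summed fibroblast markers (4 of 5 in the table) lay between 10.5 and 13.3 CPM, with COL1A1 at 8.74 to 10.9.

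With intact PLK2 most of the mitotic genes stood slightly above their level in the other cells. Counts taken from all 50 genes made up 0.992% ± 0.0585 of a Vector library, 1.02% ± 0.00265 of a PLK2(D223N) library and 1.09% ± 0.00794 of a PLK2 library (SD, n = 3 each). The differences were small, with a median log2 fold change of 0.15 in PLK2 vs Vector, 0.01 in PLK2(D223N) vs Vector and 0.13 in PLK2 vs PLK2(D223N), where the medians over all 12924 genes were -0.0044, 0.0078 and -0.0049. Above 0 were 41 of 50 in PLK2 vs Vector, 27 in PLK2(D223N) vs Vector and 41 in PLK2 vs PLK2(D223N). These comparisons share libraries and are not independent of each other.

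The test was edgeR's quasi-likelihood test on all 9 libraries with Benjamini-Hochberg adjustment over all genes tested, and a gene is said to have risen or fallen where the adjusted p was below 0.05. In PLK2 vs Vector 3 of 50 rose, GAS2L3, DEPDC1 and TOP2A, against 0.480% of all genes. None fell, against 0.0310% of all genes, and DESeq2 and limma also called none lower. At an unadjusted p below 0.05 by the same test 27 were higher and 1 was lower, where 1235 and 880 of all 12924 genes were. In PLK2(D223N) vs Vector none of the 50 rose or fell, against 0.0232% of all genes that rose and 0% that fell. At an unadjusted p below 0.05 in edgeR 1 was higher and 1 lower there, where 675 and 427 of all 12924 genes were. The DESeq2 Wald test and limma on TPM also called 0 of the 50. In PLK2 vs PLK2(D223N) 1 of 50 rose, GAS2L3, against 0.155% of all genes, and none fell, against 0.00774%. At an unadjusted p below 0.05 in edgeR 21 were higher and 1 was lower in that comparison, where 385 and 396 of all 12924 genes were. DESeq2 and limma also called none of the 50 lower.

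Counting genes whose 3 libraries per group did not overlap gives a view that does not use the shared estimate of spread. In PLK2 vs PLK2(D223N) all PLK2 libraries lay above all PLK2(D223N) libraries for 36 of 50 mitotic genes, against 11.0% of all genes, and below for 1, against 9.49%. In PLK2 vs Vector 26 were higher without overlap, against 10% of all genes, and 2 were lower, against 10.1%. Without Vector replicate 1 the first of these counts was 33, against 14% of all genes with the same libraries. In PLK2(D223N) vs Vector 2 were higher without overlap, against 6.66% of all genes, and 5 were lower, against 7.21%. Without Vector replicate 1 these counts were 7, against 12.7% of all genes, and 8, against 12.6%.

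**Figure D1:**
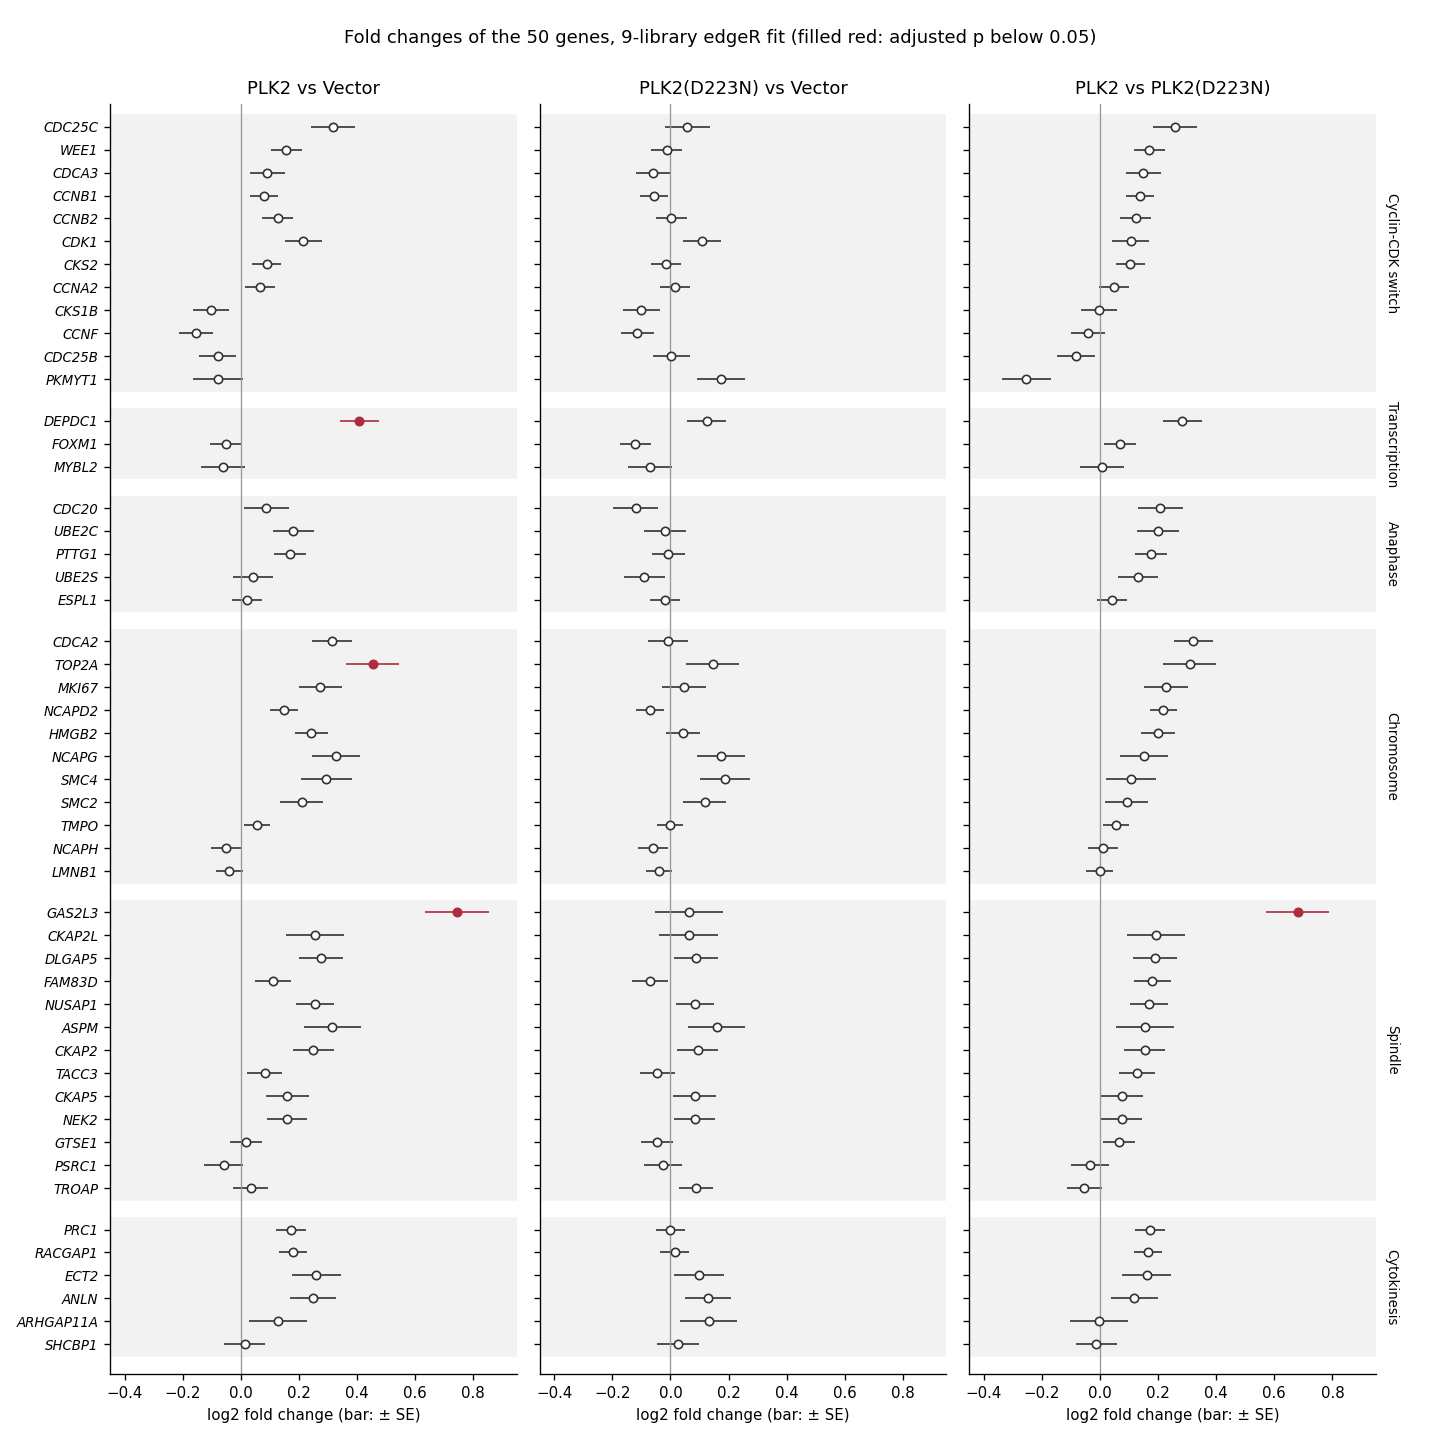
Log2 fold change of each of the 50 genes with its SE, from the 9-library edgeR fit, for the 3 comparisons and grouped by role. Filled red points passed an adjusted p of 0.05. Most points lie right of 0 in the outer panels and around 0 in the middle panel.

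The test across 9 libraries takes its estimate of spread in part from the Vector libraries, also for the comparison of both PLK2 forms. Fitted to the 6 libraries of PLK2 and PLK2(D223N) alone, the test called 30 of 50 genes higher in PLK2, against 2.92% of 12810 genes, and 1 lower, against 0.999%. The fold changes hardly moved, with a median of 0.13. Leaving out any 1 of the 6 libraries, a check added after seeing the data, left between 23 and 31 of the 50 higher, against between 1.4% and 4.9% of all genes. Of the 30 genes, 22 passed in all 6 of these fits, and CDK1, CKS2, UBE2S, SMC2, SMC4, FAM83D, TACC3 and ANLN were lost in at least 1. In the 9-library fit without Vector replicate 1, 25 of 50 were higher in PLK2 vs PLK2(D223N), against 1.91% of all genes, and all 25 were among the 30 (83.3% of them). Without that library 23 of 50 were higher in PLK2 vs Vector, against 2.38% of all genes.

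**Figure D2:**
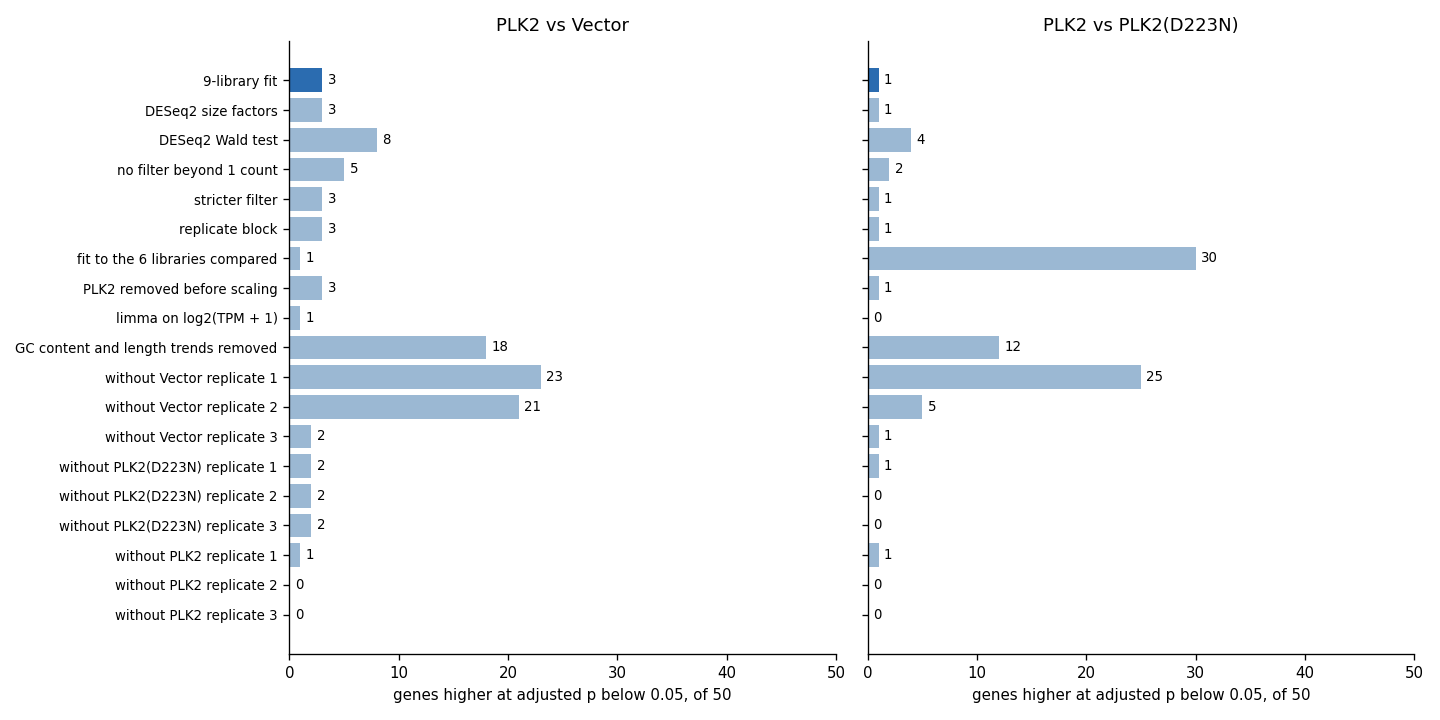
Number of the 50 genes that were higher at an adjusted p below 0.05 in PLK2 vs Vector (left) and PLK2 vs PLK2(D223N) (right), for the 9-library fit (dark bar) and each alternative (light bars). The right panel goes from 1 gene in the 9-library fit to 30 in the fit to the 6 libraries compared, and both panels rise without Vector replicate 1.

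The test results by role follow, beginning with the switch that starts mitosis. Of 12 genes of the cyclin-CDK switch none passed in the 9-library edgeR fit in any comparison. At an unadjusted p below 0.05, 4 were higher and 1 lower in PLK2 vs Vector, and 5 higher and 1 lower in PLK2 vs PLK2(D223N). In the 6-library fit CCNB1, CDK1, CKS2, CDC25C and WEE1 rose and PKMYT1 fell in PLK2 vs PLK2(D223N). Of the 6 fits that each left out a library, CKS2 passed only in the one without PLK2 replicate 3 and CDK1 in those without PLK2(D223N) replicate 1 or PLK2 replicate 3. With trends of GC content and length removed, none of the 12 passed between the forms. CDC25C, a phosphatase that activates CDK1, was at 39.2, 32.05 and 34.1 CPM in Vector, at 38.0, 34.7 and 37.2 in PLK2(D223N) and at 44.5, 45.6 and 41.3 in PLK2 libraries. All PLK2 libraries were above all others. The log2 difference against Vector was 0.32 (SE 0.08, edgeR adjusted p = 0.0784 in the 9-library fit). Against PLK2(D223N) it was 0.26 (SE 0.08, edgeR adjusted p = 0.438 in the 9-library fit, and SE 0.05, 0.00106 in the 6-library fit).

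WEE1, the kinase that inhibits CDK1 in the nucleus, also stood higher in PLK2 libraries, at 96.8, 98.5 and 96.99 CPM, than in PLK2(D223N) (85.9, 89.3 and 84.8) or Vector libraries (83.0, 88.0 and 91.4). Its difference from PLK2(D223N) was 0.17 on the log2 scale (SE 0.04, edgeR adjusted p = 0.00213 in the 6-library fit). PKMYT1, the membrane-bound relative of WEE1 and likewise an inhibitor of CDK1, ran the other way. It was at 15.1, 15.8 and 16.4 CPM in PLK2, at 18.6, 19.7 and 18.1 in PLK2(D223N) and at 18.3, 14.98 and 16.6 in Vector libraries. PLK2 lay below PLK2(D223N) in every library and overlapped with Vector. The log2 difference from PLK2(D223N) was -0.25 (SE 0.07, edgeR adjusted p = 0.0379 in the 6-library fit), and it passed in only 1 of the 6 fits that left out a library, the one without PLK2 replicate 3.

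CDK1, the kinase at the centre of the switch, was at 213, 212 and 202 CPM in PLK2, at 197, 192 and 194 in PLK2(D223N), and at 161, 197 and 183 in Vector libraries. The log2 difference was 0.21 (SE 0.06, edgeR adjusted p = 0.145) against Vector. Against PLK2(D223N) it was 0.11 (SE 0.03, adjusted p = 0.0228 in the 6-library fit). Without Vector replicate 1 the difference of CDK1 from Vector was 0.14 (edgeR adjusted p = 0.0294). With trends of GC content and length removed it was 0.03 from Vector and 0.06 between the forms (edgeR adjusted p = 0.658 and 0.678). CCNB1, its cyclin partner, was at 301, 303 and 299 CPM in PLK2 and at 264, 277 and 279.8 in PLK2(D223N) libraries (0.14, SE 0.03, edgeR adjusted p = 0.000767 in the 6-library fit). CCNA2, the cyclin of S phase and G2, differed by 0.05 (SE 0.03, edgeR adjusted p = 0.407 in the 6-library fit), with overlapping groups.

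CCNF, the F-box cyclin that marks other cell cycle proteins for destruction, had the lowest log2 difference from Vector of all 50 genes, at -0.16 (SE 0.06, edgeR adjusted p = 0.221). Its libraries were at 87.1, 76.6 and 81.2 CPM in Vector, 76.6, 74.4 and 75.4 in PLK2(D223N) and 73.8, 75.4 and 70.9 in PLK2. Both forms lay below Vector without overlap and overlapped with each other. CKS1B, a CDK subunit with near-identical copies elsewhere in the genome that make its counts uncertain, differed from PLK2(D223N) by -0.0035 (SE 0.06).

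Of 3 genes of transcription control, DEPDC1 rose in PLK2 vs Vector, while FOXM1 and MYBL2 passed in no comparison of either fit. FOXM1, the forkhead activator of G2/M genes, was at 204, 189 and 183 CPM in Vector, 177, 176 and 176 in PLK2(D223N) and 184, 179.7 and 192 in PLK2 libraries. It differed from Vector by -0.05 (SE 0.05, edgeR adjusted p = 0.628), and from PLK2(D223N) by 0.07 (SE 0.03, adjusted p = 0.195 in the 6-library fit). MYBL2, the partner of the MuvB core, was at 246, 193 and 193 CPM in Vector, 198, 201 and 204 in PLK2(D223N) and 203, 202 and 201 in PLK2 libraries. Vector replicate 1 alone stood above the rest. PLK2 and PLK2(D223N) differed by 0.01 for MYBL2 (SE 0.03, edgeR adjusted p = 0.938 in the 6-library fit).

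DEPDC1, described as a transcriptional corepressor with a role in mitosis (chromosome 1, 68474152 to 68497221, minus strand, GRCh38 in GENCODE release 29), was at 257, 320.1 and 304 CPM in Vector libraries. It was at 329, 313 and 318 CPM in PLK2(D223N) and at 394, 393 and 381 in PLK2 libraries, so that every PLK2 library lay above the other 6. DEPDC1 rose by 0.41 against Vector (SE 0.07, edgeR adjusted p = 0.0105), and by 0.21 with trends of GC content and length removed (SE 0.03, adjusted p = 0.000419). The call was lost without PLK2 replicate 1, 2 or 3 (edgeR adjusted p = 0.0748, 0.105 and 0.0641). It was also lost in the fit to the PLK2 and Vector libraries alone (0.0735) and with limma on TPM (0.0934). Against PLK2(D223N) its difference was 0.28 (SE 0.07, adjusted p = 0.177 in the 9-library edgeR fit, and SE 0.03, 9.24e-12 in the 6-library fit).

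Of the 5 anaphase genes none passed in the 9-library edgeR fit. At an unadjusted p below 0.05, 2 were higher in PLK2 vs Vector and 3 in PLK2 vs PLK2(D223N). All 5 had a value above 0 in PLK2 vs Vector and in PLK2 vs PLK2(D223N) and below 0 in PLK2(D223N) vs Vector. CDC20, UBE2C, UBE2S and PTTG1 rose in the 6-library fit of PLK2 vs PLK2(D223N). CDC20, the activator of the anaphase-promoting complex, was at 191, 209.8 and 199 CPM in PLK2, 177, 169.6 and 173 in PLK2(D223N), and 219, 171 and 176 in Vector libraries. Both forms differed without overlap, whereas Vector overlapped with both. The log2 difference between the forms was 0.21 (SE 0.03, edgeR adjusted p = 2.50e-06 in the 6-library fit).

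UBE2C, a ubiquitin-conjugating enzyme of the same complex, was at 124, 143 and 129 CPM in PLK2, 115, 114 and 117 in PLK2(D223N), and 129.7, 106 and 114 in Vector libraries. Its difference between the forms was 0.20 (SE 0.04, edgeR adjusted p = 0.000444 in the 6-library fit). PTTG1, the securin that holds separase inactive, was at 94.7, 98.3 and 93.3 CPM in PLK2, 83.0, 84.3 and 86.5 in PLK2(D223N), and 88.6, 79.6 and 86.5 in Vector libraries. All PLK2 libraries were above the other 6, and the difference between the forms was 0.17 (SE 0.04, edgeR adjusted p = 0.00168 in the 6-library fit). Close copies of PTTG1 could share its counts. ESPL1, separase itself, was at 114, 114 and 122 CPM in PLK2, 113, 112 and 115 in PLK2(D223N), and 119, 111 and 115 in Vector libraries, and its groups overlapped (0.04 between the forms, SE 0.03, edgeR adjusted p = 0.589 in the 6-library fit).

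Several genes of chromosome structure stood higher with intact PLK2. Of 11 genes that compact, untangle or coat the chromosomes or line the nucleus, TOP2A rose in PLK2 vs Vector in the 9-library edgeR fit, and 8 rose in PLK2 vs PLK2(D223N) in the 6-library fit. These were NCAPD2, NCAPG, SMC2, SMC4, TOP2A, HMGB2, MKI67 and CDCA2. TOP2A, the topoisomerase that untangles sister chromatids (chromosome 17, 40388516 to 40417950, minus strand), was at 507, 729 and 652 CPM in Vector, at 690.1, 692 and 705 in PLK2(D223N) and at 852, 896 and 836 in PLK2 libraries. Every PLK2 library was above the other 6, and Vector replicate 1 was the lowest. TOP2A rose by 0.45 against Vector (SE 0.09, edgeR adjusted p = 0.0408). That call was lost in 9 of 18 alternatives. It was lost without PLK2 replicate 1, 2 or 3 (edgeR adjusted p = 0.157, 0.260 and 0.123). The same held without PLK2(D223N) replicate 1, 2 or 3 (0.0801, 0.0782 and 0.0884) or Vector replicate 3 (0.0883). It was also lost in the fit to the PLK2 and Vector libraries alone (0.151) and with limma on TPM (0.171). Against PLK2(D223N) the difference of TOP2A was 0.31 (SE 0.09, adjusted p = 0.438 in the 9-library edgeR fit, and SE 0.03, 3.38e-13 in the 6-library fit).

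**Figure D3:**
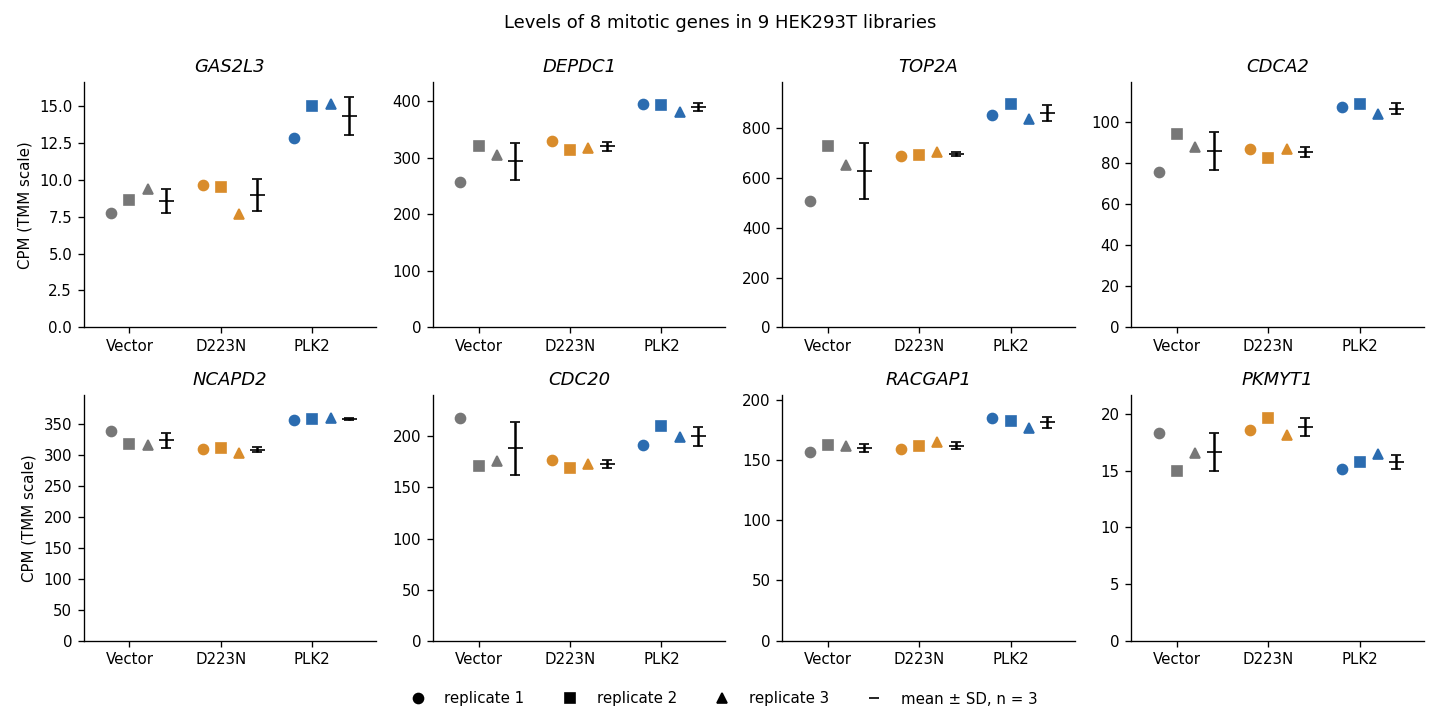
CPM in each of the 9 libraries for 8 of the genes, with the mean and SD of each group beside the points (D223N stands for PLK2(D223N)). For GAS2L3, DEPDC1, TOP2A, CDCA2, NCAPD2 and RACGAP1 all PLK2 libraries lie above the other 6, for CDC20 Vector replicate 1 is the highest point, and for PKMYT1 the PLK2 libraries lie below PLK2(D223N).

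CDCA2, a chromatin-bound regulator of protein phosphatase 1 known as Repo-Man, was at 76.0, 94.1 and 87.9 CPM in Vector, 86.7, 82.5 and 86.8 in PLK2(D223N) and 107, 109 and 104 in PLK2 libraries. All PLK2 libraries were above the other 6. The difference from Vector was 0.31 (SE 0.07, edgeR adjusted p = 0.0534 in the 9-library fit). That from PLK2(D223N) was 0.32 (SE 0.07, edgeR adjusted p = 0.1115 in the 9-library fit, and SE 0.04, 2.28e-09 in the 6-library fit). HMGB2, a chromatin protein that bends DNA, was at 275, 303 and 300.3 CPM in Vector, 304, 299 and 302 in PLK2(D223N) and 356, 363 and 319 in PLK2 libraries, again without overlap. HMGB2 differed by 0.24 from Vector (SE 0.06, edgeR adjusted p = 0.0783 in the 9-library fit). From PLK2(D223N) it differed by 0.20 (SE 0.06, edgeR adjusted p = 0.438 in the 9-library fit, and SE 0.03, 0.000370 in the 6-library fit). MKI67, the Ki-67 protein that coats mitotic chromosomes, was at 667, 684 and 681 CPM in PLK2, 583, 581 and 574 in PLK2(D223N) and 479.8, 637 and 565 in Vector libraries. MKI67 differed by 0.23 between the forms (SE 0.03, edgeR adjusted p = 3.04e-09 in the 6-library fit). The edgeR adjusted p was 0.603 in the 9-library fit and 0.242 with trends of GC content and length removed.

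Of the 5 condensin I subunits, 4 rose between the forms in the 6-library fit and NCAPH did not pass. NCAPD2 was at 357, 357 and 359.9 CPM in PLK2, 309, 310.4 and 303 in PLK2(D223N), and 337, 317 and 315 in Vector libraries, with no overlap of PLK2 with either group. NCAPD2 differed between the forms by 0.22 (SE 0.03, edgeR adjusted p = 1.28e-08 in the 6-library fit). NCAPG was at 293, 306 and 286 CPM in PLK2, 267, 264 and 267 in PLK2(D223N), and 195, 262 and 249.6 in Vector libraries. NCAPG differed by 0.33 from Vector (SE 0.08, edgeR adjusted p = 0.0926), by 0.21 without Vector replicate 1 (adjusted p = 0.000219) and by 0.19 with trends of GC content and length removed (adjusted p = 0.00280). It differed by 0.15 from PLK2(D223N) (SE 0.08, edgeR adjusted p = 0.871 in the 9-library fit, and SE 0.03, 0.000174 in the 6-library fit). With those trends removed this difference was 0.12 (edgeR adjusted p = 0.165). The core ATPases SMC2 and SMC4 differed between the forms by 0.09 and 0.11 (SE 0.03 each, edgeR adjusted p = 0.0398 and 0.00889 in the 6-library fit). SMC2 passed in only 1 of the 6 fits that left out a library, the one without PLK2 replicate 3, and SMC4 was lost without PLK2(D223N) replicate 3 or PLK2 replicate 1. Neither passed in the 9-library fit without Vector replicate 1 (edgeR adjusted p = 0.141 for SMC2 and 0.419 for SMC4). NCAPH, the kleisin that closes the ring, was at 105, 103 and 103 CPM in Vector, 97.5, 100.2 and 101 in PLK2(D223N), and 96.1, 105 and 98.9 in PLK2 libraries. Its difference between the forms was 0.01 (SE 0.04, edgeR adjusted p = 0.928 in the 6-library fit). Differences between subunits were not tested. LMNB1 and TMPO, proteins of the nuclear lamina, differed between the forms by -0.0014 (SE 0.03) and 0.06 (SE 0.03) in that fit and did not pass.

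Among 13 spindle genes GAS2L3 had the largest fold change of all 50. GAS2L3, a protein that links microtubules and actin and takes part in cytokinesis (chromosome 12, 100573683 to 100628286, plus strand), was the lowest of the 50 per length, at 3.39 ± 0.28 TPM in Vector and 5.70 TPM on average in PLK2 libraries. It was at 7.73, 8.60 and 9.34 CPM in Vector, 9.62, 9.51 and 7.68 in PLK2(D223N), and 12.9, 15 and 15.1 in PLK2 libraries. No PLK2 library overlapped with the other 6. GAS2L3 rose by 0.74 against Vector (SE 0.11, edgeR adjusted p = 0.00522) and by 0.68 against PLK2(D223N) (SE 0.11, adjusted p = 0.0152). The first call was lost without PLK2 replicate 2 or 3 (adjusted p = 0.0660 and 0.0525). The second was lost without PLK2(D223N) replicate 2 or 3 (0.0636 and 0.152), without PLK2 replicate 2 or 3 (0.169 and 0.131) and with limma on TPM (0.137).

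In the 6-library fit 7 further spindle genes rose in PLK2 vs PLK2(D223N), NUSAP1, ASPM, DLGAP5, FAM83D, CKAP2, CKAP2L and TACC3, by 0.13 to 0.19. NUSAP1, a microtubule bundler at chromosomes, was at 189, 186 and 180.4 CPM in PLK2, 163, 162 and 169 in PLK2(D223N), and 137, 166 and 163 in Vector libraries. Its difference was 0.25 from Vector (SE 0.07, edgeR adjusted p = 0.0971) and 0.17 from PLK2(D223N) (SE 0.03, adjusted p = 8.70e-05 in the 6-library fit). DLGAP5, which stabilises kinetochore fibres, was at 214, 224 and 214 CPM in PLK2, 189, 189 and 194 in PLK2(D223N), and 153, 201 and 185 in Vector libraries. The PLK2 libraries lay above the other 6 for both genes. PSRC1, a microtubule-binding protein at the spindle, was at 39.8, 35.8 and 36.1 CPM in Vector, 37.2, 36.3 and 36.3 in PLK2(D223N), and 36.8, 33.2 and 37.2 in PLK2 libraries, with overlapping groups. PSRC1 and TROAP, which binds astral microtubules, were below 0 in PLK2 vs PLK2(D223N), at -0.03 (SE 0.05) and -0.05 (SE 0.05), and neither passed in that fit.

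Of the 6 cytokinesis genes 4 rose in the 6-library fit, PRC1, ANLN, ECT2 and RACGAP1, and none passed in the 9-library edgeR fit, where at an unadjusted p below 0.05, 4 were higher in PLK2 vs Vector and 2 in PLK2 vs PLK2(D223N). RACGAP1, the GTPase-activating subunit of centralspindlin, was at 185, 183 and 176 CPM in PLK2, 159, 161 and 165 in PLK2(D223N), and 156, 162 and 162 in Vector libraries. RACGAP1 differed by 0.18 from Vector (SE 0.05, edgeR adjusted p = 0.118 in the 9-library fit). Its difference from PLK2(D223N) was 0.16 (SE 0.05, edgeR adjusted p = 0.438 in the 9-library fit, and SE 0.03, 0.000145 in the 6-library fit). PRC1, which bundles the central spindle, was at 279.8, 285 and 259 CPM in PLK2, 240.4, 244 and 247 in PLK2(D223N), and 245, 240.1 and 246 in Vector libraries (0.17 between the forms, SE 0.03, edgeR adjusted p = 5.20e-05 in the 6-library fit). For both genes the PLK2 libraries were the 3 highest.

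ANLN, the furrow scaffold anillin, was at 282, 289.6 and 266 CPM in PLK2, 261, 254 and 256 in PLK2(D223N), and 198, 264 and 244 in Vector libraries, with PLK2 above the rest. ANLN passed in 2 of the 6 fits that left out a library. ECT2, the activator of RhoA at the furrow, differed between the forms by 0.16 (SE 0.03, edgeR adjusted p = 7.70e-05 in the 6-library fit). SHCBP1, a partner of centralspindlin, was at 80, 101 and 94.8 CPM in Vector, 95.4, 94.6 and 90.4 in PLK2(D223N), and 92.3, 90.8 and 94.9 in PLK2 libraries, and ARHGAP11A, a GTPase-activating protein for RhoA, was at 157, 161 and 158 in PLK2 and 159, 160.2 and 157 in PLK2(D223N) libraries. Their differences between the forms were -0.01 (SE 0.04) and -0.004 (SE 0.03), neither of which passed, and the close copy of ARHGAP11A leaves its counts uncertain.

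The base composition of the transcripts moved with the odd Vector library. Across the 50 genes, the log2 ratio of Vector replicate 1 to the mean of the other 2 Vector libraries followed the GC content of the exons with Pearson's r = 0.805 and Spearman's rho = 0.827 (n = 50 genes that share the same libraries), where all genes gave 0.553 and 0.656. Of the 25 mitotic genes below the median GC content of 45.1%, 23 were lower in Vector replicate 1 than in the other Vector libraries, and of the 25 above it 20 were higher. In PLK2 vs Vector the median log2 fold change was 0.25 in the low-GC and 0.04 in the high-GC genes, and in PLK2 vs PLK2(D223N) it was 0.15 and 0.12. Fold changes of the 50 genes also followed GC content, with Pearson's r = -0.668 in PLK2 vs Vector and -0.461 in PLK2 vs PLK2(D223N). All genes gave -0.251 and -0.191. Spearman's rho was -0.711 and -0.333 for the 50, and -0.473 and -0.319 for all genes. With trends of GC content and length removed from each library, 18 of 50 were higher in PLK2 vs Vector, against 1.95% of all genes, with a median of 0.10. In PLK2 vs PLK2(D223N) 12 of 50 were then higher, against 0.670% of all genes, and all 12 were among the 30 of the 6-library fit (40.0% of them). The 12 were CDC20, CDCA2, DEPDC1, DLGAP5, GAS2L3, HMGB2, NCAPD2, PRC1, TACC3, TOP2A, UBE2C and UBE2S. The others of the 30, among them CDC25C, WEE1, PTTG1, NCAPG, MKI67, NUSAP1, ECT2 and RACGAP1, did not pass there.

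**Figure D4:**
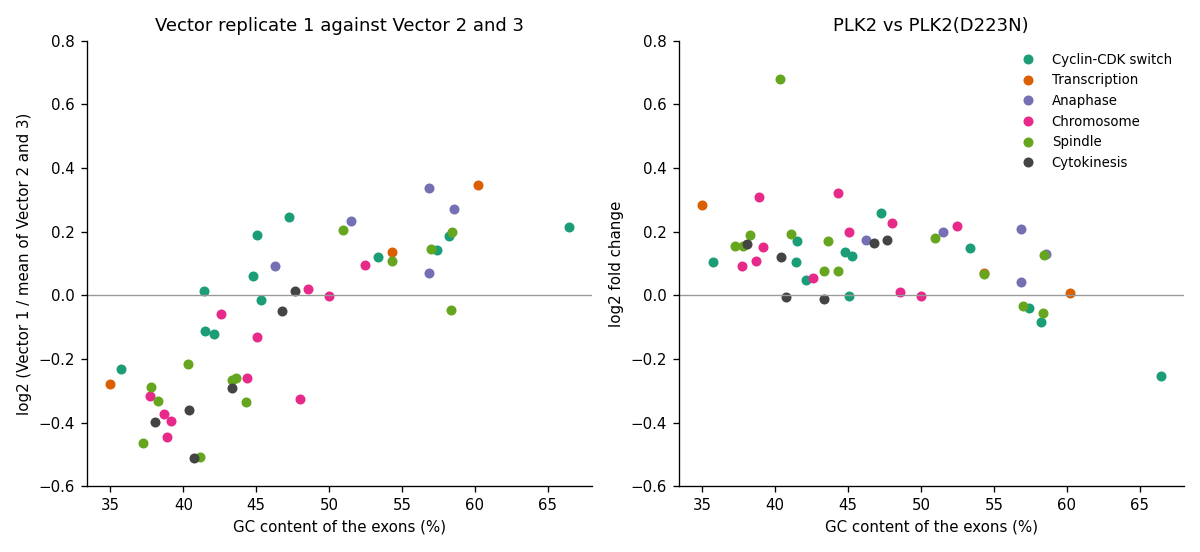
Each point is 1 of the 50 genes, coloured by role, plotted against the GC content of its exons in percent. Left, the log2 ratio of Vector replicate 1 to the mean of Vector replicates 2 and 3, which goes from below 0 at low GC content to above 0 at high GC content. Right, the log2 fold change in PLK2 vs PLK2(D223N), which lies above 0 for 41 genes.

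Promoter windows were drawn from RefSeq (GRCh38.p14, 250 bases before to 50 bases after a start site). The motifs searched on both strands were the CHR, as TTTGAA or TTCGAA, and CCAAT. Of the 50 genes 41 had a window, some of them several. A CHR was found in any window of 28 of the 41 (68.3%), against 15.8% of 10613 tested genes with a window. CCAAT was found in 32 of 41 (78.0%), against 44.1%, and both motifs in 24 of 41 (58.5%), against 6.62%. The genes were listed as G2/M genes, so these shares describe the list and do not depend on any fold change. The 28 genes with a CHR had a median log2 fold change of 0.19 in PLK2 vs Vector and 0.14 in PLK2 vs PLK2(D223N). In PLK2(D223N) vs Vector their median was 0.0526. Of the 28, 22 were higher in PLK2 without overlap between the forms, against 11.0% of all genes. The 13 genes without it had medians of 0.08 in PLK2 vs Vector, 0.07 in PLK2 vs PLK2(D223N) and -0.00679 in PLK2(D223N) vs Vector. Of the 13, 7 were higher in PLK2 without overlap between the forms. Windows were not found for CDCA2, FAM83D, FOXM1, HMGB2, PKMYT1, RACGAP1, TROAP, UBE2C and WEE1. These 9 genes had medians of 0.16 in PLK2 vs Vector, 0.17 in PLK2 vs PLK2(D223N) and -0.00864 in PLK2(D223N) vs Vector. Of the 9, 7 were higher without overlap between the forms. Whether the CHR bears on the fold change was not tested.

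Stretches of 120 bases are printed for the 3 genes that rose in PLK2 vs Vector and for CDC25C, NCAPG, NUSAP1 and MKI67, which had the smallest p among the other genes with a window. Capitals mark the CHR and CCAAT motifs on either strand (TTCAAA and ATTGG are the reverse complements), and in MKI67 a CHR and a CCAAT share a base.
GAS2L3, chr12:100593528-100593647, plus strand: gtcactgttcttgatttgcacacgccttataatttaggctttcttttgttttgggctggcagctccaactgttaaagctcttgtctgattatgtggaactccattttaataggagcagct
DEPDC1, chr1:68497072-68497191, minus strand: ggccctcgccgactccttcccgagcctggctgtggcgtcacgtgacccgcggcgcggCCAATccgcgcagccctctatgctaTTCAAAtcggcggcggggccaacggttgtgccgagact
TOP2A, chr17:40418010-40418129, minus strand: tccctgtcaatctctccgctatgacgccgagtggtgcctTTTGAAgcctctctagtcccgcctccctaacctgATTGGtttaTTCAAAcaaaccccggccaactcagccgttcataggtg
CDC25C, chr5:138331797-138331916, minus strand: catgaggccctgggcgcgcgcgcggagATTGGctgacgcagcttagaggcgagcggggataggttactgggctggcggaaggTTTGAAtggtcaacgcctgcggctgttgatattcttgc
NCAPG, chr4:17810862-17810981, plus strand: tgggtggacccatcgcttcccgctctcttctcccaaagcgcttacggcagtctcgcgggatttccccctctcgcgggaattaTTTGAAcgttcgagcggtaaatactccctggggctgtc
NUSAP1, chr15:41332791-41332910, plus strand: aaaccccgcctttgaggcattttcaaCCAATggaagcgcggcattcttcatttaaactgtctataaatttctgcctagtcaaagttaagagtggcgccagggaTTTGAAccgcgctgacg
MKI67, chr10:128126415-128126534, minus strand: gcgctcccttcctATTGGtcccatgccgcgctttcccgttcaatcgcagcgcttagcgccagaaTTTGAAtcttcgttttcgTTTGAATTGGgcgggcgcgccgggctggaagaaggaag
In these stretches the DEPDC1 window carries a CCAAT upstream of its CHR, as do those of CDC25C and NUSAP1. CDC25C had 4 windows, of which 2 held a CHR, and the printed window was chosen for its CHR. The TOP2A stretch holds 2 CHR motifs with a CCAAT between them. The NCAPG window holds a CHR and no CCAAT. The GAS2L3 window, which belongs to a RefSeq start site inside the GENCODE span of the gene, holds neither motif, although GAS2L3 had the largest fold change. A match to these letters is a description of the window and not a measured binding site.

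Other genes of the cell cycle were read from further lists. Of 33 polo-like and Aurora kinase, kinesin and kinetochore genes, 5 rose in PLK2 vs Vector and 2 in PLK2 vs PLK2(D223N) in the 9-library edgeR fit, and their median in the second comparison was 0.17. HJURP, which loads CENP-A at centromeres, and AURKA, the Aurora kinase of the spindle poles, were the 2 that rose between the forms. Of 30 genes of G1/S and DNA replication none passed in any comparison with edgeR, and at an unadjusted p below 0.05 none was higher in any while 2 were lower in PLK2 vs Vector and 3 in PLK2(D223N) vs Vector. Of these 30, 11 had all PLK2 above all PLK2(D223N) libraries, against 11.0% of all genes, and 1 had them below, against 9.49%. In PLK2 vs PLK2(D223N) 23 of the 30 were above 0, against 47.9% of all genes, and their median was 0.04. The subunits and regulators of the anaphase-promoting complex (16 genes, median 0.01), condensin II and cohesin (13 genes, median 0.03) and the MuvB and E2F group (11 genes, median 0.01) also had none that passed in that comparison, and at an unadjusted p below 0.05 with edgeR 2, 0 and 1 of them were higher and none was lower. In the 6-library fit of PLK2 vs PLK2(D223N), where 2.92% of all genes rose, 22 of 33 kinase, kinesin and kinetochore genes did. So did 2 of 30 G1/S genes and 1 of 16 of the anaphase-promoting complex. The counts were 2 of 13 for condensin II and cohesin and 1 of 11 for the MuvB and E2F group. In that fit 5 of 13 genes of cell cycle arrest (median 0.10) and 2 of 11 of the entry phosphatases also rose, and of 13 abscission genes 2 rose and 1 fell. Among 13 genes of cell cycle arrest GADD45A, a stress-induced inhibitor of CDK1, rose in PLK2 vs Vector by 0.39 (SE 0.07, edgeR adjusted p = 0.0117). GADD45A was at 22.6, 20.3 and 21.6 CPM in Vector, 22.4, 22.0 and 22.7 in PLK2(D223N), and 29, 28.1 and 27.7 in PLK2 libraries.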

How the data were processed

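Poly(A) RNA-seq of 9 HEK293T libraries was used, grouped by the treatment label. The submitters' processing notes name Bowtie2, RSEM 1.3.1, DESeq2 1.4.5 and build GRCh38.p13, and no source used here gives annotation or strandedness. From the deposited table come the authors' estimated counts, rounded here to whole numbers, and the authors' TPM, used for levels per length and 1 alternative test. A further 18 per-library columns were not used.

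Genes were kept by filterByExpr, libraries scaled by TMM and all 9 fitted with the group as the only term in edgeR 4.0.16 (robust glmQLFit, glmQLFTest, two-sided) under R 4.3.3. Fold changes are log2 values. Alternatives used DESeq2 1.42.0, limma 3.58.1 on log2(TPM + 1) where the mean TPM reached 1, other scalings and filters, a replicate block, the 6 libraries compared, loess removal of GC and length trends (span 0.3, GENCODE release 29, 12841 genes), and each library left out. The fit was tested on simulated data. The members and lists were chosen with earlier results of these data known. Genes given by library were those called in any comparison and, in each role group, the 3 with the smallest p and the 1 with the lowest fold change in PLK2 vs Vector. CCNB1, PKMYT1, NCAPD2, NCAPG, MKI67 and ARHGAP11A, also given by library, were chosen after their values were seen. The labels call the libraries biological replicates.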

Additional observations from a re-analysis of the deposited data

Results flagged for a closer look

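GAS2L3 differed between the effects of both constructs by the test of the difference itself. Its log2 fold change in PLK2 vs PLK2(D223N) was 0.68 (SE 0.11, edgeR adjusted p = 0.0152), with all 3 PLK2 libraries above all 3 PLK2(D223N) libraries. PLK2 RNA was also higher in the former group, so the substitution and the level of the construct cannot be told apart. The call was kept in 13 of 18 alternatives, with adjusted p from 7.71e-07 to 0.169.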

How the results depend on the processing

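The share of all genes called higher in the same fit is given in brackets. For PLK2 vs Vector the count of higher mitotic genes was 3 of 50 in the 9-library fit (0.480%). It was 8 with the DESeq2 Wald test (1.01%) and 5 with no filter beyond 1 count (0.739%). The fit to the PLK2 and Vector libraries alone gave 1 (0.18%), and limma on log2(TPM + 1) gave 1 (0.142%). With GC content and length trends removed it was 18 (1.95%), and with 1 library left out 0 to 23. The last reached 23 without Vector replicate 1 (2.38%), 21 without Vector replicate 2 (9.25%) and 1 without PLK2 replicate 1 (0.169%). It was 0 without PLK2 replicate 2 (0.1%) or 3 (0.154%). The count of lower genes was 0 to 1 with 1 library left out. The 1 was CCNF without Vector replicate 2, where 451 of 13028 genes were lower. The median log2 fold change went from 0.15 to 0.10 with GC content and length trends removed. For PLK2(D223N) vs Vector the count of higher genes was 0 to 3 with 1 library left out. The 3 arose without Vector replicate 2 (2.48%, against 0.0232% in the 9-library fit). The median was 0.0617 with limma on TPM. For PLK2 vs PLK2(D223N) the count of higher genes was 1 in the 9-library fit (0.155%). It was 4 with the DESeq2 Wald test (0.255%), 2 with no filter (0.188%) and 0 with limma on TPM (0.0667%). The fit to the PLK2 and PLK2(D223N) libraries alone gave 30 (2.92%) with 1 lower (0.999% of all genes lower). With GC content and length trends removed the count of higher genes was 12 (0.670%), and with 1 library left out 0 to 25. It was 25 without Vector replicate 1 (1.91%) and 5 without Vector replicate 2 (0.368%). It was 0 without PLK2(D223N) replicate 2 (0.0691%) or 3 (0.0922%) or PLK2 replicate 2 (0.0769%) or 3 (0.0922%). The median there was 0.0796 with limma on TPM. The cause of these changes was not tested. DESeq2 size factors, the stricter filter and PLK2 removed before scaling left each of these counts as it was.

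The deviations of same-numbered libraries from their group means correlated between -0.11 and 0.14, and those of other pairs between -0.22 and 0.12. No pairing by replicate number was seen in these values, but with 3 libraries a group they cannot exclude it. With a replicate block 3 genes were higher in PLK2 vs Vector, 0 in PLK2(D223N) vs Vector and 1 in PLK2 vs PLK2(D223N), and no count of calls changed.

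GAS2L3, DEPDC1 and TOP2A kept their direction in PLK2 vs Vector in all 18 alternatives, as did GAS2L3 in PLK2 vs PLK2(D223N). Among the genes given by library, without those chosen after their values were seen, 54 of 1242 values in the alternatives were not called and changed sign. Most differences were below 0.3 on the log2 scale, and with 3 libraries a group a gene that did not pass is not shown to be unchanged.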
